A study of Mus musculus with 228 samples.

Results

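Neurofilaments are the intermediate filaments of neurons. They are built from the light, medium and heavy subunits encoded by Nefl, Nefm and Nefh together with alpha-internexin, encoded by Ina, and they set the calibre of axons. Microtubules run beside them, made of tubulins such as the neuronal beta-tubulin Tubb3, and are bound by tau (Mapt) in axons, by Map2 in dendrites and by Map1b in growing and mature processes. Stathmin-2 (Stmn2) binds free tubulin in growing axons, and Gap43 is a membrane protein of growth cones and presynaptic terminals. These 10 genes are described here across 4 groups of single mouse hippocampal neurons, out of 22870 gene rows in the count table. They were chosen by name as neuronal cytoskeleton genes, with levels in these same cells already known, so all their values are given as a description and none as a test.

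The cells were taken with a patch pipette from acute slices of the ventral hippocampus of mice aged 3 to 4 months, 1 month after virus injection, and each cell was sequenced as a library of its own. Ascl4 CA1 cells were CA1 pyramidal neurons of the Nex-Cre line that received Cre-dependent AAV-Ascl4 together with Cre-dependent AAV-EGFP, and EGFP CA1 cells were CA1 pyramidal neurons of the same line with AAV-EGFP alone. Ascl4 GC cells were dentate granule cells of the Calb1-Cre line that received both viruses, and EGFP GC cells were granule cells of that line with AAV-EGFP alone. AAV-EGFP was thus common to all groups, and cell type and Cre line cannot be told apart. Ascl4 encodes a basic helix-loop-helix transcription factor.

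The count table held 45 Ascl4 CA1, 46 EGFP CA1, 51 Ascl4 GC and 47 EGFP GC cells. The design text states 51, 48, 52 and 53 cells past quality control for these groups, a difference whose source is not given. The labels name no animal, so each group counts as 1 sample, cells are not replicates of a virus, and no p-value is given. Cells held 1077532 to 25442664 reads, with a median of 6832 to 6975 genes with a read per group. Ascl4 itself stood at 9395 counts per 1e+06 reads (CPM) in Ascl4 CA1 cells against 32.6 CPM in EGFP CA1 cells, and at 14111 CPM in Ascl4 GC cells against 47.2 CPM in EGFP GC cells. The granule cell gene Prox1 had 7.78 CPM in Ascl4 CA1 and 0.240 CPM in EGFP CA1 cells, but 156 CPM in Ascl4 GC and 175 CPM in EGFP GC cells, while the CA1 gene Fibcd1 reached 165 CPM in Ascl4 CA1 and 543 CPM in EGFP CA1 cells, but 0.0444 CPM in Ascl4 GC and 3.21 CPM in EGFP GC cells. Some markers of cell type were lower with Ascl4: C1ql2 had 294 CPM in Ascl4 GC against 1017 CPM in EGFP GC cells, and Neurod6 had 94.2 CPM in Ascl4 CA1 against 319 CPM in EGFP CA1 cells. The list of 8 granule cell markers summed to 2539.7 CPM in Ascl4 GC against 4023 CPM in EGFP GC cells, with 1 gene higher and 4 lower, and the list of 8 CA1 pyramidal markers to 1355 CPM in Ascl4 CA1 against 1982 CPM in EGFP CA1 cells, also with 1 higher and 4 lower. In CA1 cells the granule cell list was higher with Ascl4, at 1180 CPM against 624 CPM with EGFP, with 3 of 3 expressed genes higher. C1ql2 had 20.3 CPM in Ascl4 CA1 against 0.180 CPM in EGFP CA1 cells, with 3 against 0 cells at 10 CPM. In granule cells the CA1 list stood at 25.5 CPM with Ascl4 against 67.8 CPM with EGFP. In 4 Ascl4 GC cells and 1 Ascl4 CA1 cell more than 12000 genes had a read, against 0 cells in both EGFP groups.

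Unless stated otherwise a level is the CPM of the reads summed over a group's cells, a log2 ratio is taken after adding 1 CPM to both levels, and a gene is counted as higher or lower past 1.5-fold. Exact 95% intervals of a level cover the counting of reads alone, those of a share of cells treat the cells as independent draws, and neither covers the spread between animals. Most members varied widely between cells: in EGFP CA1 cells, for example, Stmn2 ran between 0 and 1290 CPM with a median of 222 CPM. For that reason the number of cells at 10 CPM or more stands beside many of the summed levels. For some members the lowest, median and highest cell are given too. Over the 10 genes, a median of 7 members reached 10 CPM in an Ascl4 CA1 cell and 7 in an EGFP CA1 cell, against 5 in an Ascl4 GC cell and 5 in an EGFP GC cell.

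**Figure D1:**
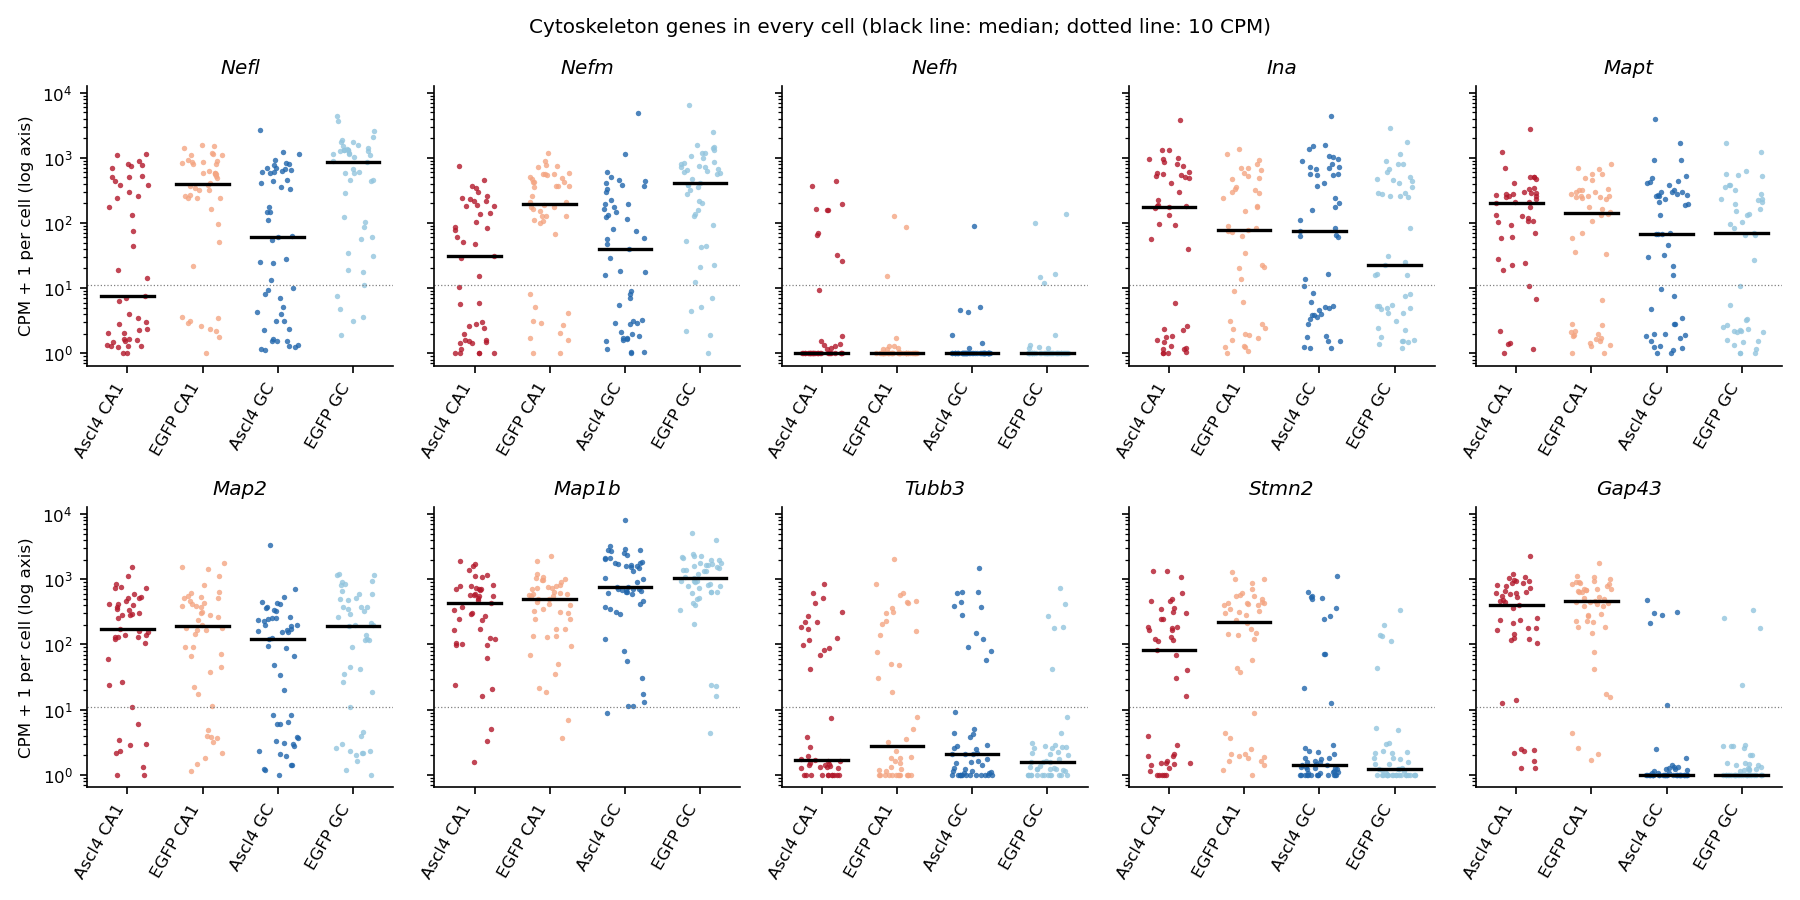
CPM plus 1 of each member (log axis) in every cell of the 4 groups; points are cells, black lines medians and the dotted line 10 CPM. Nefl and Nefm split into a high and a low set of cells, with more low cells in both Ascl4 groups, while Gap43 was high in most CA1 cells and at 0 CPM in the median granule cell.

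The promoters of 4 of the 10 members were held in the RefSeq promoter table (GRCm38.p6), which spans 250 bases before to 50 bases after the gene start; Ina, Map2, Map1b and Tubb3 matched. Basic helix-loop-helix factors bind E-boxes, written CANNTG, of which CAGCTG is one form, and both motifs read the same on both strands. Every CAGCTG is also counted as a CANNTG. Of 32851 promoters of this length, 72.3% held a CANNTG and 16.3% a CAGCTG. The Ina window held 1 E-box, which was a CAGCTG, and the Map1b window held 1 E-box of another form. The Map2 and Tubb3 windows held 0 E-boxes. The windows of Ina, whose share among neurofilament subunits was larger in both Ascl4 groups, and of Map1b, whose level differed little between viruses, are printed with the E-box in capitals, at chr19:47014431-47014730 (plus strand) and chr13:99516553-99516852 (minus strand).
Ina: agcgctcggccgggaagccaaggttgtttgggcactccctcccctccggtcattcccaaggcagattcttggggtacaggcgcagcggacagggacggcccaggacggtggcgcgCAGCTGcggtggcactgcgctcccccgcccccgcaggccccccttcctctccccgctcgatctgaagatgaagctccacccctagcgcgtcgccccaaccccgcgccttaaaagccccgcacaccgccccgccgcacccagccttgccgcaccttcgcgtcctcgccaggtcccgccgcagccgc
Map1b: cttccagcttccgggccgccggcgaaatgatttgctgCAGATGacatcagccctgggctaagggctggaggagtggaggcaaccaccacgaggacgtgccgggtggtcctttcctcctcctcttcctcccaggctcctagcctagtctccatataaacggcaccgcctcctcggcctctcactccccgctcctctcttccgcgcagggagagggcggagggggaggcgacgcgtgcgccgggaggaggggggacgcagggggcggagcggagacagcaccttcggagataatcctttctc
The match is a description of the letters in these windows and says nothing of binding.

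Nefl and Nefm, the light and medium subunits, were lower with Ascl4 in both cell types. Nefl (chromosome 14, 68083863 to 68089095, plus strand, GRCm38) lies inside the span of Nefm (chromosome 14, 68082590 to 68124846, minus strand), and 1108 bases of their annotated exons overlap, which is 32.8% of the exon bases of Nefl. Whether counting used the strand is not given in the sources used here, so reads from this stretch cannot be assigned to one gene with certainty.

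The level of Nefl was 306 CPM (304 to 308) among Ascl4 GC cells against 1016 CPM (1011 to 1020) in EGFP GC cells, a log2 ratio of -1.73. Its lowest, median and highest Ascl4 GC cells had 0.127, 60.9 and 2636 CPM, against 0.905, 848 and 4384 CPM among EGFP GC cells. The ranges overlapped over most of their length, and Ascl4 GC cells were lower both in the middle and in the upper part of the range, with an upper quartile of 601 CPM against 1323 CPM in EGFP GC cells. Nefl reached 10 CPM in 31 of 51 Ascl4 GC cells (60.8%; exact interval 46.1 to 74.2%) against 42 of 47 EGFP GC cells (89.4%; 76.9 to 96.5%). In CA1 cells Nefl stood at 269.6 CPM (267 to 272) with Ascl4 against 532 CPM (529 to 535) with EGFP, a log2 ratio of -0.98. The lowest, median and highest cells had 0, 6.50 and 1162 CPM with Ascl4 against 0, 395 and 1561 CPM with EGFP. At 10 CPM or more were 22 of 45 Ascl4 CA1 cells (48.9%; 33.7 to 64.2%) against 37 of 46 EGFP CA1 cells (80.4%; 66.1 to 90.6%), so the median CA1 cell differed far more than the summed level.

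Nefm showed the same order of groups. It stood at 189 CPM in Ascl4 GC cells against 696 CPM in EGFP GC cells, a log2 ratio of -1.87, and at 153 CPM in Ascl4 CA1 cells against 314 CPM in EGFP CA1 cells, a log2 ratio of -1.03. Its lowest, median and highest Ascl4 GC cells had 0, 39.4 and 4944 CPM, against 0, 416 and 6462 CPM among EGFP GC cells. Among CA1 cells these were 0, 30.3 and 750.4 CPM with Ascl4 against 0, 197 and 1174 CPM with EGFP. One Ascl4 GC cell gave 33.8% of that group's Nefm reads. At 10 CPM or more were 30 Ascl4 GC cells against 41 EGFP GC cells, and 25 Ascl4 CA1 cells against 35 EGFP CA1 cells.

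The serial numbers in the titles list each group in separate stretches, the first called run 1 and the later ones run 2 here; the labels do not say what they stand for. Run 1 held 33 of 51 Ascl4 GC cells but 15 of 47 EGFP GC cells. Inside runs the Nefl log2 ratio between Ascl4 GC and EGFP GC cells was -1.39 in run 1 and -2.55 in run 2, and that of Nefm was -1.72 and -2.89. Between Ascl4 CA1 and EGFP CA1 cells Nefl gave -0.45 in run 1 and -1.50 in run 2, and Nefm gave -0.20 and -2.11. The lower levels in granule cells were thus past 1.5-fold in each run, whereas in CA1 cells they were past it in run 2 and short of it in run 1. In run 1 the median Nefl cell had 5.41 CPM among 17 Ascl4 CA1 cells against 374 CPM among 15 EGFP CA1 cells, with 8 against 10 cells at 10 CPM. The median Nefm cell of run 1 had 83.3 CPM with Ascl4 against 176 CPM with EGFP, but 12 of 17 against 10 of 15 cells were at 10 CPM.

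Between cell types with EGFP, Nefl was at 532 CPM in CA1 and 1016 CPM in granule cells, a log2 ratio of -0.93, and Nefm at 314 CPM in CA1 and 696 CPM in granule cells, a log2 ratio of -1.15. With Ascl4 the summed levels lay closer, at a log2 ratio between CA1 and granule cells of -0.18 for Nefl and -0.30 for Nefm. The median Nefl cells lay further apart with Ascl4, at 6.50 CPM in CA1 against 60.9 CPM in granule cells, a log2 ratio of -3.04. With EGFP they had 395 CPM in CA1 against 848 CPM in granule cells, a log2 ratio of -1.10. For Nefm the log2 ratio of the medians was -0.37 with Ascl4 and -1.08 with EGFP.

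**Figure D2:**
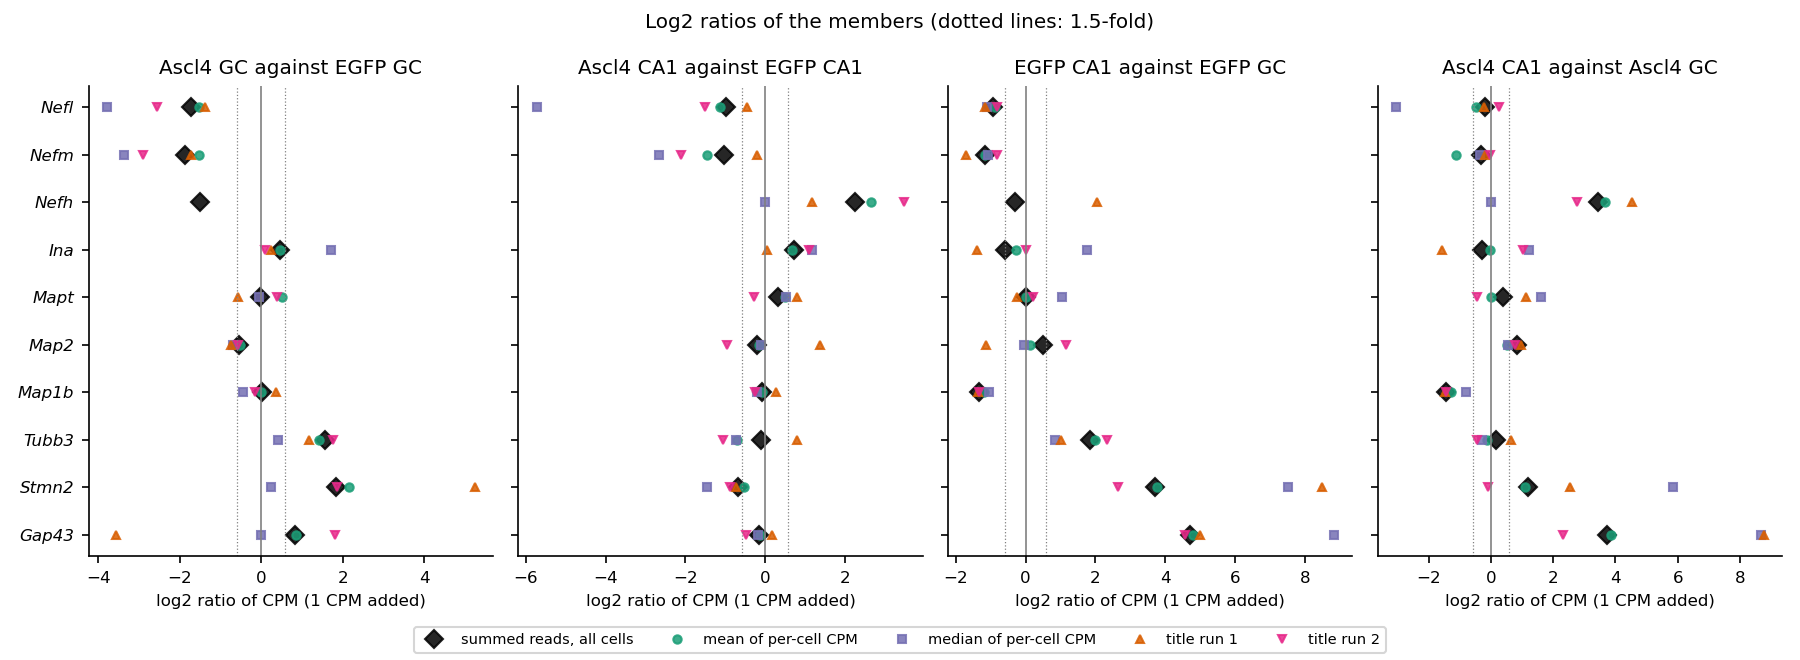
Log2 ratio of each member in the 4 comparisons (x axis, 1 CPM added), from summed reads of all cells, from the mean and the median of per-cell CPM, and from each title run alone. Nefl and Nefm lay left of 0 in both comparisons of Ascl4 with EGFP in all 5 versions; Nefh in granule cells and in EGFP cells was below the filter on low values, so its points there are a description of very few reads.

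In single cells Nefl and Nefm went together. Spearman's rho of their CPM across cells was 0.69 in Ascl4 CA1, 0.86 in EGFP CA1, 0.73 in Ascl4 GC and 0.75 in EGFP GC cells, a mean of 0.76. Both genes were at 10 CPM or more in 20 of 45 Ascl4 CA1 cells and neither in 18, while 2 cells had Nefl alone and 5 Nefm alone. In EGFP CA1 cells 32 of 46 had both and 6 neither. Ascl4 GC cells held 24 of 51 with both and 14 with neither, against 39 of 47 with both and 3 with neither among EGFP GC cells. Cells with neither subunit at 10 CPM were thus more frequent with Ascl4 in both cell types. Inside runs rho was 0.52 and 0.78 in Ascl4 CA1, 0.88 and 0.86 in EGFP CA1, 0.70 and 0.81 in Ascl4 GC, and 0.65 and 0.79 in EGFP GC cells (run 1, then run 2). The cells share a library and depth for both genes, and the overlapping exons can add reads of one gene to the other; how much they add was not tested.

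**Figure D3:**
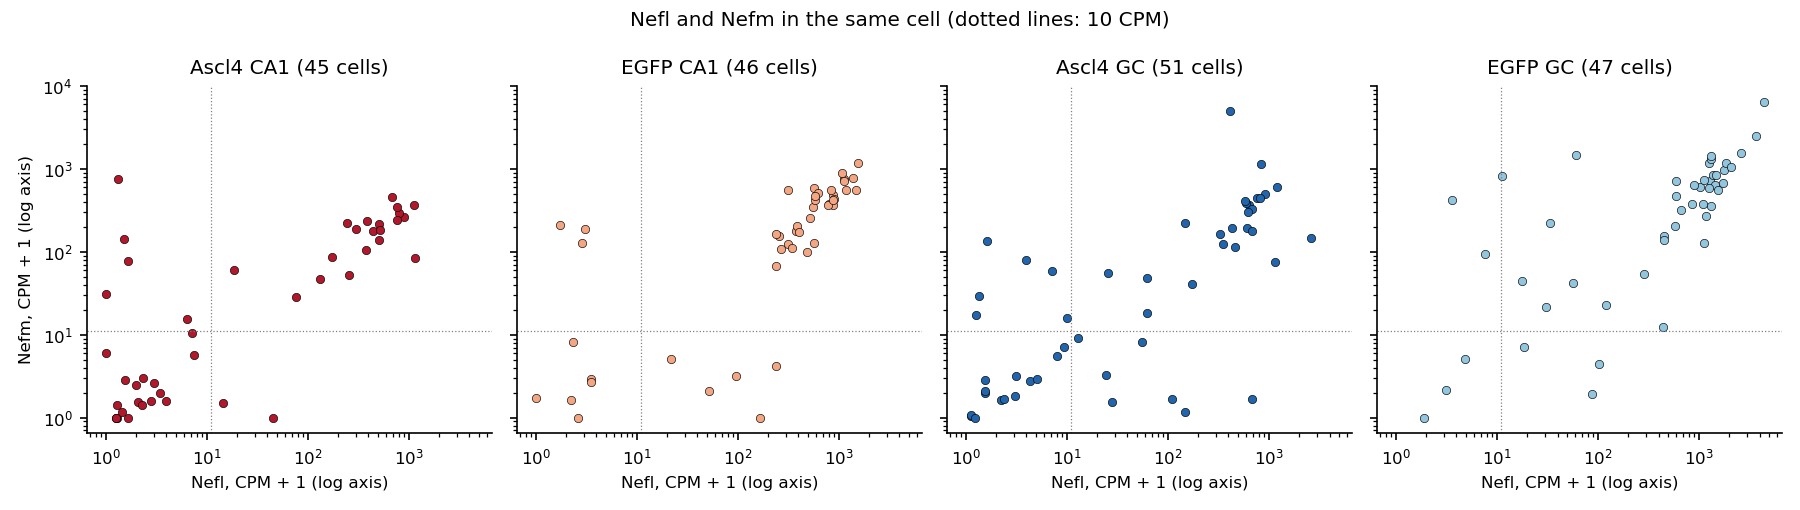
Nefl against Nefm in the same cell, CPM plus 1 on log axes, 1 panel per group; points are cells and dotted lines mark 10 CPM. Cells gather in the upper right (both genes high) and, in the Ascl4 panels, in the lower left (18 of 45 Ascl4 CA1 and 14 of 51 Ascl4 GC cells with neither gene at 10 CPM).

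Among 4882 genes with a read in 50% of the cells of every group, Nefm had the highest mean rho with Nefl, at 0.76. The next were Pfkl, a phosphofructokinase subunit, at 0.36, the acyl-CoA thioesterase Acot7 at 0.33, Camkv at 0.32 and the mitochondrial ATP synthase subunit Atp5a1 at 0.31. Of these genes 95.7% had a mean rho with Nefl under 0.20. Nefl and Nefm were unrelated in rank to the other subunit Ina, with mean rho of 0.10 and 0.06.

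Nefh, the heavy subunit, was scarce. It stood at 26.1 CPM (25.4 to 26.8) in Ascl4 CA1 cells against 4.64 CPM (4.37 to 4.91) in EGFP CA1 cells, a log2 ratio of 2.27. It reached 10 CPM in 10 of 45 Ascl4 CA1 cells (22.2%; 11.2 to 37.1%), whose highest cell had 435 CPM, against 3 of 46 EGFP CA1 cells (6.52%; 1.37 to 17.9%), whose highest cell had 129 CPM and gave 54.5% of that group's Nefh reads. The median cell had 0 CPM in all 4 groups. Inside runs the log2 ratio in CA1 cells was 1.19 in run 1 and 3.50 in run 2. In granule cells Nefh stood at 1.48 CPM with Ascl4 against 5.98 CPM with EGFP, both below the level of 10 CPM that the filter on low values asks for, with 1 Ascl4 GC and 5 EGFP GC cells at 10 CPM.

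Ina, which can assemble with the other subunits, differed from Nefl and Nefm. It stood at 328 CPM (325 to 330) in Ascl4 CA1 cells against 196 CPM (195 to 198) in EGFP CA1 cells, a log2 ratio of 0.74, with lowest, median and highest cells of 0, 173 and 3857 CPM with Ascl4 against 0, 75.9 and 1367 CPM with EGFP. The number of cells at 10 CPM was close, at 29 of 45 Ascl4 CA1 cells against 31 of 46 EGFP CA1 cells. The ratio came from run 2, at 1.11, and was 0.04 in run 1. In granule cells Ina stood at 402 CPM with Ascl4 against 294 CPM with EGFP, a log2 ratio of 0.45, with medians of 73.2 CPM with Ascl4 and 21.5 CPM with EGFP. Inside runs the log2 ratio was 0.23 and 0.08, both below the ratio over all cells. The median granule cell of run 1 was lower with Ascl4, at 59.7 CPM against 260 CPM with EGFP, and that of run 2 higher, at 97.6 CPM against 18.5 CPM. Run 1 held 33 Ascl4 GC but 15 EGFP GC cells. Ina was higher there, at 560 CPM with Ascl4 and 477 CPM with EGFP, against 213 and 201 CPM in run 2. Ina (chromosome 19, 47014698 to 47025327, plus strand) shares 456 exon bases with Nt5c2 on the other strand, whose reads there cannot be told apart without strand.

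The makeup of subunit RNA therefore differed. Per exon length, Ina made up 50.1% of the summed reads of the 4 subunits in Ascl4 GC cells against 17.7% in EGFP GC cells, and 47.3% in Ascl4 CA1 cells against 22.2% in EGFP CA1 cells. Nefl made up 36.5% with Ascl4 against 58.6% with EGFP in granule cells and 37.3% against 57.6% in CA1 cells. In granule cells the share of Ina was larger with Ascl4 in both runs, at 49.8% against 23.1% with EGFP in run 1 and 51.2% against 13.8% with EGFP in run 2. In CA1 cells it was 26.9% with Ascl4 against 22.05% with EGFP in run 1 and 63.7% with Ascl4 against 22.2% with EGFP in run 2. Cell by cell, Ina exceeded Nefl per exon length in 30 of 51 Ascl4 GC cells against 8 of 47 EGFP GC cells, and in 27 of 45 Ascl4 CA1 cells against 14 of 46 EGFP CA1 cells. This count has no floor, so it includes cells low in both genes. Neither gene reached 10 CPM in 11 Ascl4 GC against 3 EGFP GC cells, and in 10 Ascl4 CA1 against 5 EGFP CA1 cells. Ina alone reached it in 9 Ascl4 GC against 2 EGFP GC cells, and in 13 Ascl4 CA1 against 4 EGFP CA1 cells. Nefl alone did in 9 against 17 granule cells and 6 against 10 CA1 cells. The 4 subunits together summed to 899 CPM in Ascl4 GC cells against 2011 CPM in EGFP GC cells, and to 776 CPM in Ascl4 CA1 cells against 1047 CPM in EGFP CA1 cells.

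**Figure D4:**
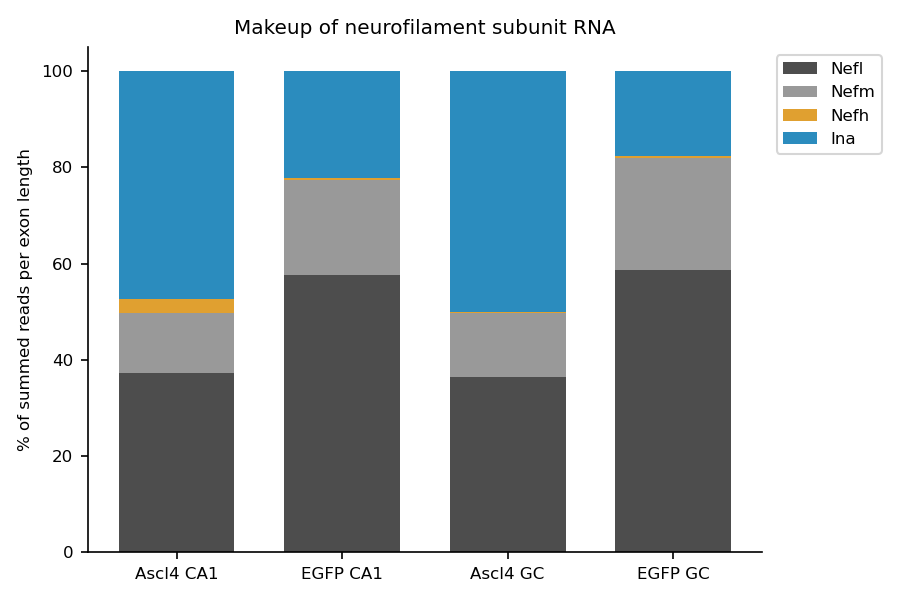
Share of each neurofilament subunit in the summed reads per exon length of Nefl, Nefm, Nefh and Ina, in % (y axis), for the 4 groups. Ina takes 50.1% in Ascl4 GC against 17.7% in EGFP GC cells and 47.3% in Ascl4 CA1 against 22.2% in EGFP CA1 cells.

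In the summed reads of all cells the microtubule-associated proteins differed less between viruses. Mapt stood at 192 CPM in Ascl4 GC cells against 196 CPM in EGFP GC cells, a log2 ratio of -0.03, and at 252 CPM in Ascl4 CA1 cells against 199 CPM in EGFP CA1 cells, a log2 ratio of 0.33. By run the values of Mapt had opposite signs in both cell types. They were -0.57 in run 1 and 0.39 in run 2 for granule cells, and 0.80 and -0.27 for CA1 cells. In granule cells 10 of 17 other settings kept the sign, and the highest value was 0.73, with the authors' normalized values. Mapt was at 10 CPM or more in 38 of 45 Ascl4 CA1 cells against 30 of 46 EGFP CA1 cells. Map2 stood at 191 CPM in Ascl4 GC cells against 277 CPM in EGFP GC cells (log2 ratio -0.54), and at 339.9 CPM in Ascl4 CA1 cells against 394 CPM in EGFP CA1 cells (log2 ratio -0.21). It was at 10 CPM or more in 32 of 51 Ascl4 GC against 34 of 47 EGFP GC cells, and in 36 of 45 Ascl4 CA1 against 37 of 46 EGFP CA1 cells. In granule cells the Map2 ratio was -0.74 in run 1 and -0.56 in run 2, and 1 Ascl4 GC cell gave 22.9% of that group's Map2 reads. There 4 of 17 other settings put it lower past 1.5-fold. The lowest was -0.94, by the mean of per-cell CPM without the highest cell, and the highest 0.03, with the authors' normalized values. A single EGFP CA1 cell, of run 2, gave 27.9% of that group's Map2 reads. For Map2 in CA1 cells the runs had opposite signs, at 1.38 in run 1 and -0.96 in run 2.

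Map1b was the member with the most cells at 10 CPM in each group. Among granule cells 50 of 51 with Ascl4 and 46 of 47 with EGFP held at least 10 CPM of it, as did 42 of 45 Ascl4 CA1 and 44 of 46 EGFP CA1 cells. Its level was 1333 CPM in Ascl4 GC against 1321 CPM in EGFP GC cells, a log2 ratio of 0.01, and 488 CPM in Ascl4 CA1 against 519 CPM in EGFP CA1 cells, a log2 ratio of -0.09. Between cell types it was lower in CA1 cells, at log2 ratios of -1.35 with EGFP and -1.45 with Ascl4. The log2 ratio between EGFP CA1 and EGFP GC cells was -1.37 in run 1 and -1.32 in run 2. Every one of 17 other processing settings kept it past 1.5-fold, though some of these settings could not change it, as described in the closing section.

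Gap43 and Stmn2 were both higher in EGFP CA1 than in EGFP GC cells. Gap43 stood at 473 CPM (471 to 476) in EGFP CA1 cells against 17.1 CPM (16.6 to 17.7) in EGFP GC cells, a log2 ratio of 4.71, with 5.01 in run 1 and 4.58 in run 2. It reached 10 CPM in 42 of 46 EGFP CA1 cells (91.3%; 79.2 to 97.6%), with lowest, median and highest cells of 0.675, 457 and 1761 CPM, against 4 of 47 EGFP GC cells (8.51%; 2.37 to 20.4%), with 0, 0 and 338 CPM. Among Ascl4 cells it stood at 429 CPM in CA1 against 31.2 CPM in granule cells, a log2 ratio of 3.74. Stmn2 stood at 306 CPM in EGFP CA1 cells against 22.6 CPM in EGFP GC cells, a log2 ratio of 3.70 (8.50 and 2.64 by run), with 32 of 46 against 6 of 47 cells at 10 CPM. Its lowest, median and highest EGFP CA1 cells had 0, 222 and 1290 CPM against 0, 0.209 and 333 CPM in EGFP GC cells. Among Ascl4 cells Stmn2 stood at 189.6 CPM in CA1 against 82.7 CPM in granule cells, a log2 ratio of 1.19, which was 2.53 in run 1 and -0.092 in run 2. Run 1 had 15 EGFP GC cells, with Stmn2 at 0.290 CPM and 0 of them at 10 CPM, and run 2 had 32, with 33.9 CPM and 6 of them at 10 CPM.

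Within CA1 cells Stmn2 was lower with Ascl4 and Gap43 differed by less than 1.5-fold. Gap43 stood at 429 CPM with Ascl4 against 473 CPM with EGFP, a log2 ratio of -0.14. Stmn2 stood at 189.6 CPM with Ascl4 against 306 CPM with EGFP, a log2 ratio of -0.69, and its median cell had 80.6 CPM with Ascl4 against 222 CPM with EGFP. The run values of Stmn2 were -0.74 and -0.88, and 13 of 17 other settings kept it past 1.5-fold; it was -0.52 by the mean of per-cell CPM and -0.51 with all cells without quality control.

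Within granule cells the values of both genes rested on few cells. Stmn2 stood at 82.7 CPM in Ascl4 GC cells against 22.6 CPM in EGFP GC cells, a log2 ratio of 1.83, with 13 of 51 against 6 of 47 cells at 10 CPM. Gap43 stood at 31.2 CPM in Ascl4 GC against 17.1 CPM in EGFP GC cells, a log2 ratio of 0.83, with 6 of 51 against 4 of 47 cells. The 4 Ascl4 GC cells with more than 12000 genes gave 66.7% of the Stmn2 reads and 86.9% of the Gap43 reads of that group, and all 4 were at 10 CPM or more for both genes. Without them Stmn2 stood at 30.1 CPM in Ascl4 GC cells, a log2 ratio of 0.40, and Gap43 at 4.46 CPM, a log2 ratio of -1.73. By run the log2 ratio of Stmn2 was 5.23 and 1.85, and that of Gap43 changed sign, at -3.57 in run 1 and 1.80 in run 2. The 4 cells with more than 12000 genes were all in run 2. Of its 18 Ascl4 GC cells 5 were at 10 CPM of Stmn2 and 5 of Gap43, these 4 among them. The run 2 values thus rest largely on the same 4 cells. The run 1 value of Stmn2 is set against 0.290 CPM in 15 EGFP GC cells, 0 of them at 10 CPM. The median Gap43 cell had 0 CPM in both granule cell groups. In Ascl4 GC cells Gap43 was higher in cells with more genes with a read (rho 0.41) and with a higher summed oligodendrocyte (0.46), astrocyte (0.42) and microglia list (0.40); in EGFP GC cells it went with the CA1 pyramidal list (rho 0.60). Stmn2 in Ascl4 GC cells had rho of 0.31 with the genes with a read, 0.36 with the oligodendrocyte, 0.20 with the astrocyte, 0.37 with the microglia and 0.33 with the endothelial list, and its rho with the CA1 pyramidal list was 0.44 in Ascl4 GC and 0.42 in EGFP GC cells. With the CA3 and mossy cell list Stmn2 had rho of 0.25 in both Ascl4 GC and EGFP GC cells. The part of these lists and of the genes with a read in the result was not tested.

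Tubb3 had a read in 33 to 38 cells of each group but reached 10 CPM in 6 to 19 cells. It stood at 105 CPM in Ascl4 GC cells against 34.7 CPM in EGFP GC cells, a log2 ratio of 1.57, with 13 of 51 against 6 of 47 cells at 10 CPM; its median cell had 1.05 CPM with Ascl4 and 0.547 CPM with EGFP. The run values were 1.17 and 1.75. All 4 Ascl4 GC cells with over 12000 genes, which were in run 2, had at least 10 CPM of Tubb3. The count of 13 Ascl4 GC cells, and that of 6 in run 2, thus rests in part on these 4. They held 8.25% of that group's Tubb3 reads, and leaving them out of the log2 ratio of Tubb3 gave 1.57. In CA1 cells it stood at 119 CPM with Ascl4 against 127 CPM with EGFP, a log2 ratio of -0.09, and the runs had opposite signs, at 0.81 in run 1 and -1.04 in run 2. In EGFP cells Tubb3 was higher in CA1 than in granule cells, at 127 CPM in CA1 against 34.7 CPM in granule cells, a log2 ratio of 1.84.

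Counted over members, the number past 1.5-fold was near the background of these libraries. In Ascl4 GC against EGFP GC cells 3 of 9 expressed members were higher and 2 lower, where 25.6% of 9783 expressed genes were higher and 30.7% lower, 56.3% in all. In Ascl4 CA1 against EGFP CA1 cells 2 of 10 were higher and 3 lower, where 24% of genes were higher and 24.3% lower, 48.4% in all. In EGFP CA1 against EGFP GC cells 3 of 9 were higher and 3 lower, where 30.5% were higher and 27.1% lower, 57.6% in all. In Ascl4 CA1 against Ascl4 GC cells 4 of 10 were higher and 1 lower, where 32.9% were higher and 25.4% lower, 58.3% in all. These comparisons share groups, and the counts say nothing particular about the members. The median log2 ratio of the members was 0.01 and -0.12 for Ascl4 against EGFP in granule and CA1 cells, beside -0.08 and -0.02 over all expressed genes.

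Set per kilobase of exons, so that genes can be compared, the order of members differed between cell types. In EGFP GC cells Nefl led at 300.5 CPM per kb, followed by Nefm at 120.4, Ina at 90.7 and Map1b at 83.4 CPM per kb. In Ascl4 GC cells Ina led at 124 CPM per kb, followed by Nefl at 90.5, Map1b at 84.1 and Tubb3 at 56.1 CPM per kb. In EGFP CA1 cells Gap43 led at 311 CPM per kb, followed by Nefl at 157, Tubb3 at 67.8 and Ina at 60.6 CPM per kb. In Ascl4 CA1 cells Gap43 led at 282 CPM per kb, followed by Ina at 101, Nefl at 79.8 and Tubb3 at 63.6 CPM per kb. Stmn2 and Nefm differed by less than their cell spread in EGFP CA1 cells, at 54.6 and 54.3 CPM per kb. The exon length is that of all annotated exons of a gene, and the read coverage along transcripts is not known.

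**Figure D5:**
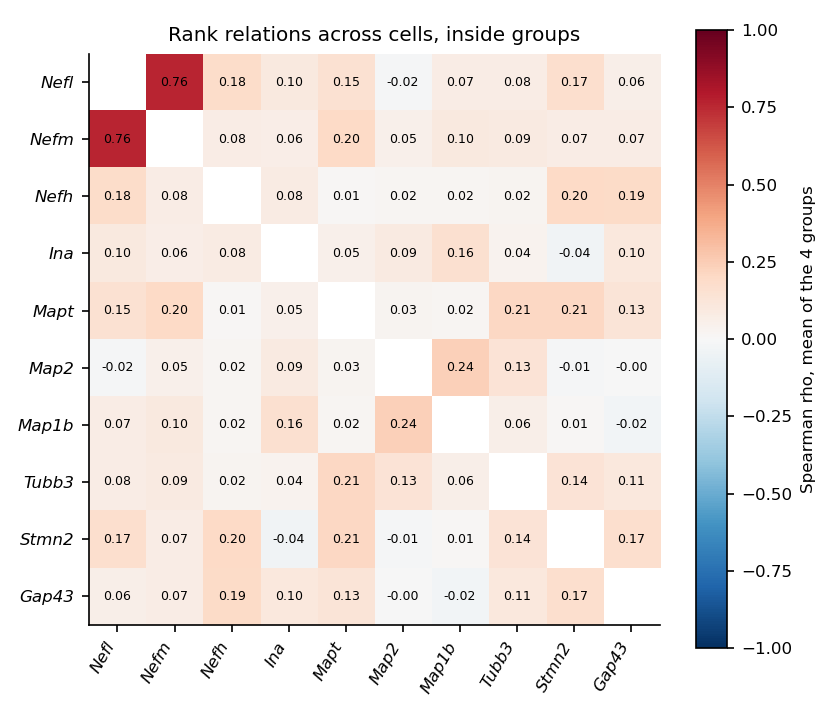
Spearman's rho between members across the cells of a group, as the mean over the 4 groups. The pair Nefl and Nefm has 0.76; every other pair has 0.24 or less.

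Apart from Nefl and Nefm, no pair of members went together across cells beyond a mean rho of 0.24, which Map1b and Map2 had. Genes most like the others by rank were Ahcyl1 with Stmn2 (mean rho 0.37), Dtnbp1 with Gap43 (0.29), Arpc1a with Mapt (0.37) and Grin2b with Map2 (0.41). Gap43 was itself below the 50% detection set in the granule cells. For Mapt the next were Atxn1, Serbp1, Ndufv1 and Zmat2 at 0.34 to 0.35, and for Map2 they were Snhg11, Thoc1, Son and Cttnbp2 at 0.37 to 0.41.

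Other cytoskeleton genes were counted in lists grouped by function, beside the shares over all expressed genes of 25.6% higher and 30.7% lower in granule cells and 24% higher and 24.3% lower in CA1 cells. Of the membrane skeleton and axon initial segment, 6 of 11 genes were higher and 0 lower in Ascl4 GC against EGFP GC cells, with a median log2 ratio of 0.95, and 2 were higher and 2 lower in Ascl4 CA1 against EGFP CA1 cells, with a median of 0.15. The adducin Add2 was at the high end in granule cells, at 25.3 CPM with Ascl4 against 8.51 CPM with EGFP, and Add3 at the low end, at 116 CPM with Ascl4 against 130.4 CPM with EGFP. Add2 was at 10 CPM or more in 8 Ascl4 GC against 7 EGFP GC cells, with a median of 0 CPM in both groups. Add3 was at 10 CPM in 21 Ascl4 GC against 18 EGFP GC cells. Its median cell had 2.14 CPM with Ascl4 against 1.51 CPM with EGFP, the other way from the summed level.

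Of the tau and neurofilament kinases, tubulin modifiers and turnover genes, 10 of 18 expressed genes were higher and 2 lower in Ascl4 GC against EGFP GC cells, with a median of 0.78. In Ascl4 CA1 against EGFP CA1 cells 3 of 18 were higher and 3 lower, with a median of -0.25. The ends of this list in granule cells were Ttll7, a tubulin polyglutamylase, at 256 CPM with Ascl4 against 32.4 CPM with EGFP, and Ttl, the tubulin tyrosine ligase, at 8.39 CPM with Ascl4 against 49.9 CPM with EGFP. Ttll7 was at 10 CPM or more in 20 Ascl4 GC against 7 EGFP GC cells. Ttl was at 10 CPM in 5 against 7 cells, with a median of 0 CPM in both groups.

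The other stathmins and growth cone proteins had 2 of 15 higher and 2 lower in granule cells, with a median of 0.01, and 0 of 15 higher and 1 lower in CA1 cells, with a median of -0.21. Their ends in granule cells were a pair of related collapsin response mediator proteins: Dpysl4 stood at 146 CPM with Ascl4 against 49.3 CPM with EGFP, and Dpysl3 at 8.15 CPM with Ascl4 against 95.5 CPM with EGFP. Dpysl4 was at 10 CPM or more in 22 Ascl4 GC against 11 EGFP GC cells, and Dpysl3 in 4 against 14. The axonal transport motors had 2 of 13 higher and 1 lower in granule cells and 3 of 13 higher and 3 lower in CA1 cells. Their ends in granule cells were the kinesin Kif21b, at 39.7 CPM with Ascl4 against 0.260 CPM with EGFP, and the dynein heavy chain Dync1h1, at 118 CPM with Ascl4 against 267 CPM with EGFP. Kif21b was at 10 CPM or more in 7 Ascl4 GC against 0 EGFP GC cells. Dync1h1 went the other way by cell, with 25 Ascl4 GC against 16 EGFP GC cells at 10 CPM. Its median cell had 8.77 CPM with Ascl4 against 2.64 CPM with EGFP. In CA1 cells the ends of the motor list were Kif1a, at 282 CPM with Ascl4 against 139 CPM with EGFP, and Kif3a, at 121 CPM with Ascl4 against 295 CPM with EGFP. Kif1a was at 10 CPM in 30 Ascl4 CA1 against 24 EGFP CA1 cells, and Kif3a in 24 against 27. The other tubulins had 3 of 9 higher and 1 lower in granule cells and 1 of 10 higher and 0 lower in CA1 cells. The other microtubule-associated proteins had 3 of 21 higher and 6 lower in granule cells and 2 of 21 higher and 5 lower in CA1 cells, and the other intermediate filaments had 2 of 4 higher and 1 lower in granule cells and 1 of 3 higher and 1 lower in CA1 cells.

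RNA of other cell types was present in the patched cells. The summed oligodendrocyte list stood at 7572 CPM in Ascl4 GC cells against 611 CPM in EGFP GC cells, with a single cell at 115358 CPM, and at 860.0 CPM in Ascl4 CA1 cells against 867 CPM in EGFP CA1 cells. Microglia markers summed to 869 CPM in Ascl4 GC against 460.2 CPM in EGFP GC cells, and to 2281 CPM in Ascl4 CA1 against 1278 CPM in EGFP CA1 cells. Astrocyte markers summed to 625 CPM in Ascl4 GC against 714 CPM in EGFP GC cells, and to 293 CPM in Ascl4 CA1 against 688 CPM in EGFP CA1 cells. Rank relations with these 3 lists lay between -0.15 and 0.00 for Nefl and between -0.24 and 0.08 for Nefm in the 4 groups. Rank relations with the granule cell list in granule cells were 0.15 with Ascl4 and 0.08 with EGFP for Nefl, and 0.14 with Ascl4 and -0.02 with EGFP for Nefm. With the CA1 pyramidal list in CA1 cells they were 0.13 with Ascl4 and 0.27 with EGFP for Nefl, and 0.29 with Ascl4 and 0.21 with EGFP for Nefm. The part of any of these markers in the lower Nefl and Nefm levels was not tested. Over the cells of both runs together, the number of cells at 10 CPM and the level in the median cell were both lower with Ascl4 for Nefl and Nefm, in granule cells and in CA1 cells. In run 1 alone the share of CA1 cells at 10 CPM of Nefm was not lower, at 12 of 17 with Ascl4 against 10 of 15 with EGFP.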

How the data were processed

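The authors deposited a table of read counts per gene for the cells past their quality control, a count table without it and a table of normalized signal. Per the submitters' processing notes reads were handled with STAR and HTSeq on GRCm38.p4; versions, settings, annotation and strand are not stated there. The deposited normalized signal equals the counts divided by 1 factor per cell, whose method is not given, and served as an alternative. Counts of 22870 genes were summed per group and scaled to CPM, leaving out 92 spike-in rows with 4 reads. Genes counted as expressed had a read in 25% of the cells of 1 group of a comparison and 10 CPM in 1. Intervals are exact Poisson and Clopper-Pearson. edgeR 4.0.16 and DESeq2 1.42.0 were used only for scaling factors, beside Python 3.11.15, pandas 2.3.3 and scipy 1.17.1. Summed ratios were checked on simulated data in which cells varied around a common mean. That check does not cover genes whose reads rest on few cells. Exon lengths come from GENCODE release 21. The 10 members and the lists were chosen with earlier results of these data known. Text names all members, list genes at the ends of their list's log2 ratios and the 5 genes most like a member by rank, with others named after their values were seen. Subunit shares and Nefl-Nefm ranks by title run were added after seeing the data.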

Additional observations from a re-analysis of the deposited data

How the results depend on the processing

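Of 17 other settings, Nefl and Nefm stayed lower and past 1.5-fold in 17 for Ascl4 GC against EGFP GC, and in 16 for Ascl4 CA1 against EGFP CA1, where run 1 alone gave -0.45 and -0.20. Gap43 and Stmn2 kept their direction in 17 of 17 for EGFP CA1 against EGFP GC. The settings with no filter and with a stricter filter on low values only change which genes are counted. A gene's ratio there equals the reported one by design, in every count of settings given here. Leaving out cells of more than 12000 genes removed 0 cells from both EGFP groups, so it could not change EGFP CA1 against EGFP GC. Gap43 in Ascl4 GC against EGFP GC turned to -1.73 without cells of more than 12000 genes and to -3.57 in run 1 alone. Map2 in Ascl4 CA1 against Ascl4 GC turned to -0.67 with the authors' normalized values, which moved the median of all genes to -0.28, and Stmn2 in the same comparison turned to -0.092 in run 2 alone. For Ascl4 CA1 against EGFP CA1, 3 members were past 1.5-fold with all cells without quality control (5 as reported). For Ascl4 CA1 against Ascl4 GC, 9 were with the authors' normalized values and 8 in run 1 alone (5 as reported). The cause was not tested. The authors' normalized values moved the median of all genes in EGFP CA1 against EGFP GC to -0.23. No paired analysis was possible because replicate numbers only count the cells of a group and each group is 1 sample. Depth per cell, from 1077532 reads, limits what a cell at 0 shows.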
